A study of Mus musculus with 6 samples.

Results

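The paraoxonase family of the mouse has 3 genes, Pon1, Pon2 and Pon3, and all 3 were present among the 23337 gene symbols counted in 6 RNA-seq libraries of lung cells. The members were picked by gene symbol. They were also chosen from measured values, since the per-library levels of Pon1, Pon2 and Pon3 and their difference between mutant and wild-type cells, with and without mutant 1, were known when the family was taken up. That difference is therefore given below as a description with no test. The mutant mice (SpC-CreER/Dlk1flox/ROSA-Tomato, 3 libraries) and the wild-type mice (SpC-CreER/ROSA-Tomato, 3 libraries) shared a tamoxifen-inducible Cre driven by the promoter of surfactant protein C and a red Tomato reporter. The mutants also carried a floxed Dlk1, the gene of a membrane protein of the Delta family, so that Dlk1 could be lost only where the surfactant protein C promoter had driven Cre. Both groups had acute lung injury from the bacterium Pseudomonas aeruginosa (PA), and Tomato-positive alveolar type II (AT2) cells were sorted 10 days after injury. One protocol field also mentions days in culture, so the labels do not settle whether the cells were cultured, and they state neither the age of the animals nor that each library came from its own animal.

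Paraoxonases are calcium-dependent esterases and lactonases. Paraoxonase 1 is made mainly in the liver, is secreted into blood and rides on high-density lipoprotein (HDL), where it protects lipids from oxidation. Paraoxonase 3 is a lactonase that is also found on HDL in humans, while paraoxonase 2 stays inside cells of most tissues, in the membranes of the endoplasmic reticulum and mitochondria. All of them can cleave acyl-homoserine lactones, the signals by which Pseudomonas aeruginosa senses its own density, and paraoxonase 2 does so most actively.

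The genes lie side by side on chromosome 6 on the same strand, in the order Pon1, Pon3, Pon2, and the bases just before their starts differ in make-up. These stretches are shown to describe the genes, and whether they bear on the levels in the libraries was not tested. Each sequence below is the 250 bases before the start annotated by RefSeq on GRCm38.p6, read on the minus strand. The stretches are chr6:5193947-5194196 for Pon1, chr6:5256234-5256483 for Pon3 and chr6:5298341-5298590 for Pon2. Capitals mark matches on either strand to the motifs searched.
Pon1: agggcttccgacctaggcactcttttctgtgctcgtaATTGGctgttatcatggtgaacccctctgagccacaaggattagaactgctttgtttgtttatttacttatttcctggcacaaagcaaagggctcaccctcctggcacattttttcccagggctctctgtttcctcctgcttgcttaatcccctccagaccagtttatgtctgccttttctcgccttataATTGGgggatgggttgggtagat
Pon3: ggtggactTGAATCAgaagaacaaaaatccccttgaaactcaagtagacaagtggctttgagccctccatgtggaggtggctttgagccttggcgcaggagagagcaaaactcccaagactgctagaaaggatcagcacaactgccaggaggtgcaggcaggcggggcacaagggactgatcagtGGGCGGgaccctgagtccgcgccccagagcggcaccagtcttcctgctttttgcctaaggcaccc
Pon2: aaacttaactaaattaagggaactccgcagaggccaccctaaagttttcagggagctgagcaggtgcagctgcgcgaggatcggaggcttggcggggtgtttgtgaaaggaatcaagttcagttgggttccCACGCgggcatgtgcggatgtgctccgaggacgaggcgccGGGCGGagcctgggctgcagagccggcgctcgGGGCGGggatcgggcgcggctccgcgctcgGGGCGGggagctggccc

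The Pon1 stretch held 47.6% G and C with 3 CpG dinucleotides, the Pon3 stretch 56.8% with 6, and the Pon2 stretch 65.6% with 24. Over 32851 annotated starts the median was 52.4% with 6 CpG. Pon1 thus lay below the median in both measures, and Pon2 above the CpG count of 88% of starts. The GC box GGGCGG was found 3 times in the Pon2 stretch, 1 time in that of Pon3 and not in that of Pon1, and 32.7% of all such stretches hold it. CCAAT was found 2 times before Pon1 and before neither of the others (33.8% of all stretches). The AP-1 motif TGANTCA was found before Pon3 alone (6.75% of all stretches) and the xenobiotic response core GCGTG before Pon2 alone (28.2%). Neither the TATA box TATAAA (12.4%) nor the antioxidant response core TGACNNNGC (10.2%) was found in any of the 3, and no match overlapped one of another motif. These are matches of letters in a window, and which start the AT2 cells used was not measured.

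Pon1 was the member that set the mutant and wild-type libraries apart. Its level was 30.0, 37.6 and 26.8 CPM (counts per 1000000 counts of the library) in mutants 1, 2 and 3, against 148.9, 69.6 and 69.2 CPM in wild types 1, 2 and 3. The groups did not overlap, and the lowest wild-type library was 1.84-fold above the highest mutant library. Wild type 1 stood alone at the top, 2.14-fold above wild type 2 and 2.15-fold above wild type 3, and mutant 2 was the highest of the mutants. The mean of Pon1 was 31.5 ± 5.56 CPM among mutants, against 95.9 ± 45.9 CPM among wild types (SD, n = 3 per group). In edgeR, fitted over all genes with TMM scaling, the log2 fold change of mutant over wild type was -1.66 ± 0.33 (SE), with a 95% interval of -2.44 to -0.89, so that the level in mutants was 0.32 of that in wild types.

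Pon1 counts ran from 759 in mutant 3 to 3351 in wild type 1. Counting error alone put mutant 3 between 24.9 and 28.8 CPM and wild type 1 between 143.9 and 153.98 CPM (exact Poisson 95% intervals, which cover counting error only). The difference among the wild-type libraries was therefore far wider than counting error. On the log2 scale after TMM scaling, the SD of Pon1 was 0.28 among mutants and 0.65 among wild types, where the median of 8636 genes with a mean of at least 10 CPM was 0.13 and 0.12. Of those genes, 87.7% varied less than Pon1 among mutants and 98.7% among wild types. Left out of the fit, wild type 1 took the log2 fold change to -1.19 (95% interval -1.60 to -0.77). Leaving out mutant 1 gave -1.59 ± 0.36 (SE), and 14 alternative settings lay between -1.86 and -1.19.

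Pon3, the lactonase with the highest counts of the family, was nearly level in 5 libraries. It stood at 311, 401 and 399 CPM in mutants 1, 2 and 3, against 388, 396 and 397 CPM in wild types 1, 2 and 3. Mutant 1 was the one low library, 22.1% below the mean of mutants 2 and 3, and mutants 2 and 3 had counting intervals that overlapped those of the wild types. The counting intervals of the 3 wild-type libraries overlapped. After TMM scaling their SD was 0.0071 on the log2 scale, smaller than in all but 0.28% of the genes compared. The mean was 370 ± 51.1 CPM among mutants, against 394 ± 4.85 CPM among wild types (SD, n = 3 per group). The log2 fold change was -0.13 ± 0.13 (SE, 95% interval -0.45 to 0.18) with all libraries and 0.01 ± 0.09 (-0.19 to 0.21) without mutant 1.

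Pon2, the intracellular member, was also level. Its values were 182.8, 203.8 and 208.8 CPM in mutants 1, 2 and 3, against 188.7, 204.3 and 206.8 CPM in wild types 1, 2 and 3. The groups overlapped throughout, with replicate 1 the lowest library in each. The means of 198.4 ± 13.8 CPM among mutants and 199.97 ± 9.80 CPM among wild types (SD, n = 3 per group) differed by less than either SD. Its log2 fold change was -0.06 ± 0.10 (SE, 95% interval -0.29 to 0.17), and 0.03 ± 0.09 (-0.18 to 0.23) without mutant 1. For Pon2 and Pon3 the intervals with all libraries took in no fold change larger than 1.37-fold in either direction.

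**Figure D1:**
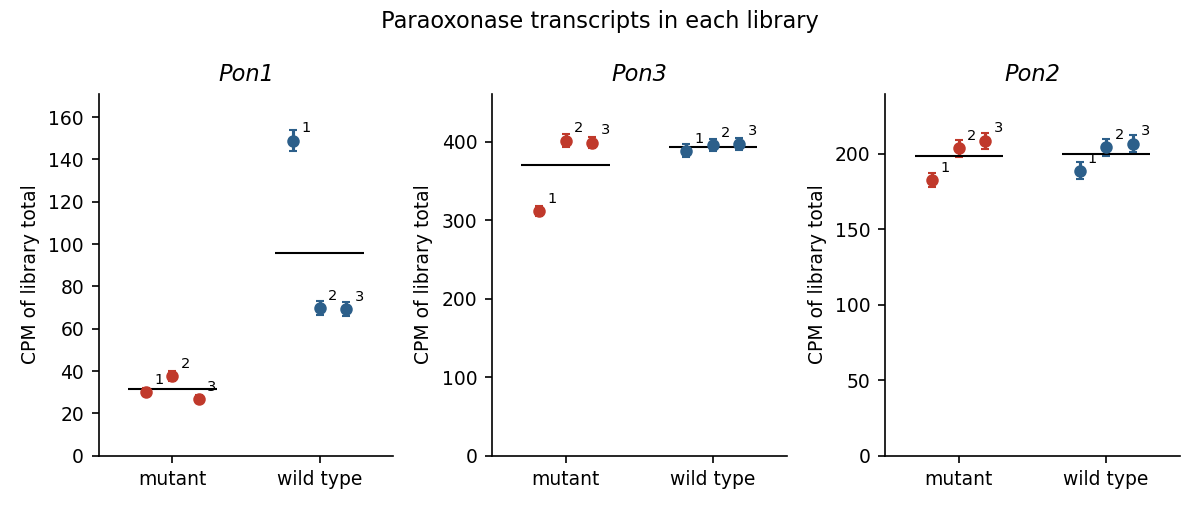
Level of Pon1, Pon3 and Pon2 in each library, as CPM of the library total on axes that start at 0. Points are single libraries numbered by replicate, with exact Poisson 95% intervals, and black lines are group means. The 3 mutant libraries lie between 26.8 and 37.6 CPM for Pon1, below all wild-type libraries, while for Pon3 and Pon2 the groups overlap.

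Each library was also read against itself, as the share of each gene in the summed counts of the 3 paraoxonases, a measure that no scaling between libraries touches. Pon1 made up 5.72%, 5.85% and 4.22% of the family counts in mutants 1, 2 and 3, against 20.5%, 10.4% and 10.3% in wild types 1, 2 and 3. Wilson 95% intervals of the single shares, which cover counting error only and not the spread between libraries, had bounds of 3.94% to 6.24% over the mutants and 9.82% to 21.1% over the wild types. The mean share was 5.27% ± 0.91 among mutants, against 13.7% ± 5.87 among wild types (SD, n = 3 per group). Pon3 counts were 1.70, 1.97 and 1.91 times the Pon2 counts in mutants 1, 2 and 3, against 2.06, 1.94 and 1.92 times in wild types 1, 2 and 3. The ratio of those 2 genes thus overlapped between the groups, with mutant 1 lowest and wild type 1 highest. The family summed to 524, 642 and 634 CPM in the mutants and to 726, 670 and 673 CPM in the wild types.

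**Figure D2:**
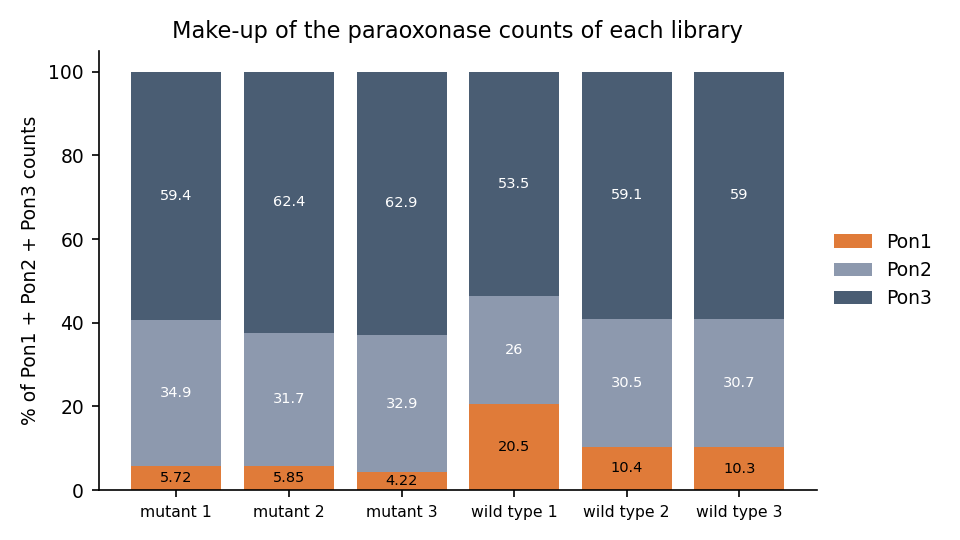
Share of Pon1, Pon2 and Pon3 in the summed paraoxonase counts of each library, in percent, with mutant libraries at the left and wild-type libraries at the right. The Pon1 share is 4.22% to 5.85% among mutants, against 10.3% to 20.5% among wild types.

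Between genes, levels were compared per kilobase of the longest coding transcript in GENCODE M21, which is 1513 bases for Pon1, 2409 for Pon2 and 1837 for Pon3. Pon3 had the highest level per kilobase in all 6 libraries, at 169.5 to 218 CPM per kilobase in the mutants and 211 to 216 CPM per kilobase in the wild types. Pon2 came next in 5 libraries, at 75.9 to 86.7 CPM per kilobase in the mutants and 78.4 to 85.9 CPM per kilobase in the wild types. Pon1 was lowest in those 5, at 17.7 to 24.9 CPM per kilobase in the mutants and 46.0 and 45.7 CPM per kilobase in wild types 2 and 3. In wild type 1 the order of the lower 2 was turned, with Pon1 at 98.4 CPM per kilobase, 1.26 times Pon2. No run of 50 bases was shared between the 3 transcripts, so reads of that length would rarely be split within the family. Of 2360 such runs in Pon2, 14 also occurred in other genes, 519 genes in all. For Pon1 and Pon3 0 runs did. Read length and strand setting were not stated in the sources used here.

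Over the whole table, edgeR's quasi-likelihood test called 0 of 12899 tested genes (0%) at a Benjamini-Hochberg adjusted p under 5%, and so none of the 3 members. The lowest adjusted p of any gene was 0.203, and at an unadjusted p under 0.05 there were 476 higher and 373 lower genes. limma-voom also called 0 genes, and DESeq2 called 38 of 12707 (0.299%), with Pon1 the 1 member among them. Without mutant 1, DESeq2 called 22 of the 12954 genes that passed the filter, and none of the members. In DESeq2 the log2 fold change of Pon1 was -1.66 ± 0.30 (SE) with all libraries and -1.59 ± 0.52 without mutant 1. Pon1 was the 1 member of 3 with all mutant libraries below all wild-type libraries, which held for 6.43% of tested genes, and 0 of 3 members had all mutants above, which held for 5.23%. A log2 fold change as low as that of Pon1 or lower was found in 10 tested genes, Pon1 included. Since the members were chosen with this contrast in view, nothing is read from these counts.

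**Figure D3:**
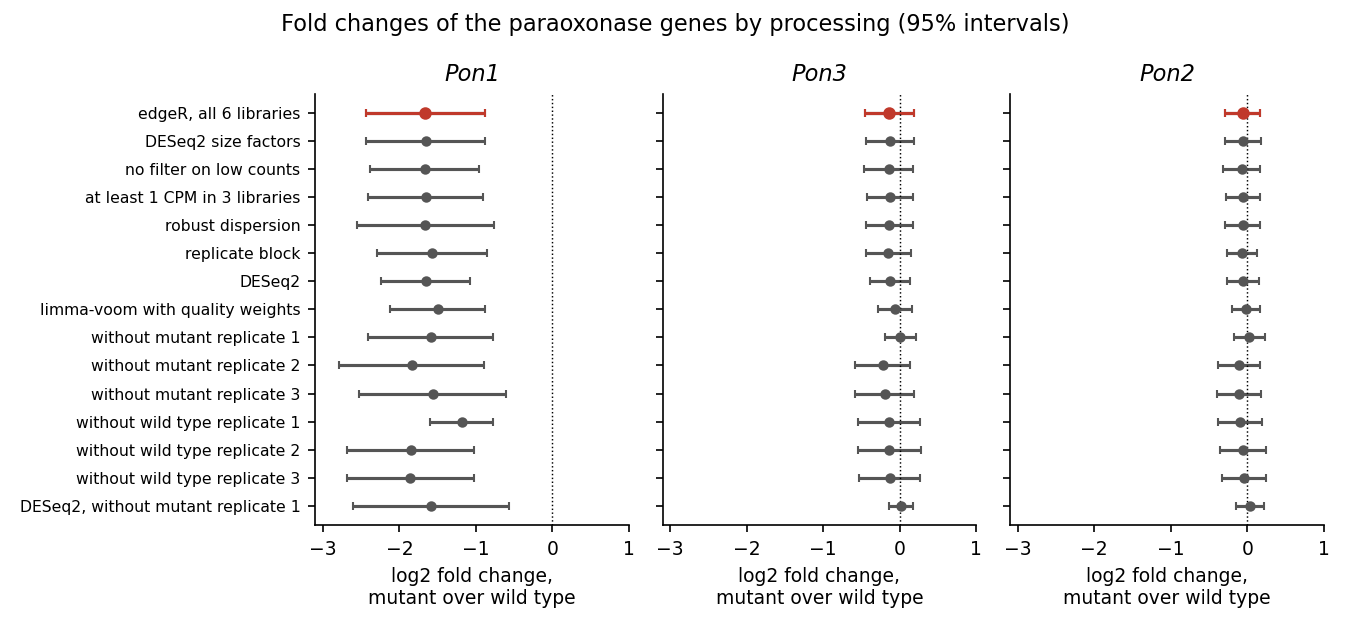
Log2 fold change of mutant over wild type for Pon1, Pon3 and Pon2 under each way of processing the counts, with 95% intervals and the fit of all 6 libraries in red. Pon1 lies between -1.86 and -1.19 in all of them, whereas Pon3 and Pon2 stay within 0.23 of 0.

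Mutant 1, where Pon3 and Pon2 were lowest, stood apart from the other libraries in markers of other cell types. Library totals ran from 22511461 to 30695994 counts, and Dlk1 had 2, 0 and 0 counts in mutants 1, 2 and 3, against 2, 0 and 2 counts in wild types 1, 2 and 3, too few to check the genotype labels. The 10 AT2 markers, led by Sftpc and Sftpa1, were all detected and summed to 131770, 145900 and 140090 CPM in mutants 1, 2 and 3, against 166240, 152190 and 143210 CPM in wild types 1, 2 and 3. Wild type 1 was thus highest in this sum as in Pon1. In mutant 1 the 10 club cell markers, led by Scgb1a1 and Cyp2f2, reached 9163 CPM, where the other 5 libraries had 502 to 836 CPM. Leukocyte markers (10 genes) reached 953 CPM there, where the others had 302 to 425 CPM. Lcp1 made up most of the sum in the others, at 287.7 to 397.3 CPM, and had 400.7 CPM in mutant 1. The pan-leukocyte gene Ptprc had 141.3 CPM in mutant 1 and 2.09 to 7.59 CPM elsewhere. High in mutant 1 were also the fibroblast markers (10 genes), at 226 CPM, where the others had 3.79 to 8.02 CPM. The sums of macrophage, neutrophil, endothelial, mesothelial and erythroid markers were also highest in mutant 1, with 4 of 8 erythroid markers at 0 in every library. Ciliated markers summed to 406 CPM there and 233 to 269 CPM elsewhere, but their top marker Tubb4b was not raised (168.4 CPM, 166.1 to 190.9 CPM elsewhere). Adipocyte markers, 5 of 10 at 0 in every library, differed little (36.2 CPM, 20.2 to 31.7 CPM elsewhere). Their top marker Lipe had 28.7 CPM in mutant 1 and 30.1 CPM in wild type 1. AT1 markers (10 genes) summed to 4436 to 4998 CPM in the mutants and 4248 to 4671 CPM in the wild types. Log2 fold changes were positive in 9 of these 10, with a median of 0.22 (0.21 without mutant 1). Every mutant lay above every wild type in 2 of them, which held for 5.23% of all tested genes. DESeq2, which called 0.299% of its genes, called 1 of them, Cav1, and edgeR did not. Of the AT2 markers 10 of 10 were negative, with a median of -0.18 (9 of 10 and -0.10 without mutant 1). Every mutant lay below every wild type in 2 of them, which held for 6.43% of all tested genes. The part of these shifts in the Pon1 values was not tested. The AT2 sum of mutant 1 was 7.85% below the mean of mutants 2 and 3, where Pon3 was 22.1% and Pon2 11.4% below it. In these bulk libraries fewer AT2 cells and less RNA per cell cannot be told apart, and the part of the other cells in the Pon3 and Pon2 values was not tested. Pon1 in mutant 1 lay between mutants 2 and 3, so its low level in the mutants was there without mutant 1. Hepatocyte markers, listed because the liver is the main site of Pon1 and Pon3, summed to 3.67 to 4.40 CPM in the mutants and 3.20 to 6.28 CPM in the wild types, with 4 of 10 at 0 in every library. Across the 6 libraries the highest AT2 sum was 1.26 times the lowest, against 5.56 times for Pon1, 1.29 times for Pon3 and 1.14 times for Pon2. Wild type 2 was the 1 library with a high level of Xist, a transcript of female cells (184.6 CPM, at most 2.93 CPM elsewhere). The mutants had at most 0.60 CPM of Xist, so the groups were not alike in this transcript. Pon1 was at a similar level in wild types 2 and 3, and the part of sex in the Pon1 values was not tested.

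The neighbours of the cluster on chromosome 6 were read next, to describe the region. Pon1 was chosen with its difference known, so setting the neighbours beside it is a description. Whether the difference in Pon1 ran along the chromosome was not tested. Of 18 neighbouring genes counted, 10 were tested, with 2 positive and 8 negative log2 fold changes, a median of -0.13 and 0 calls in either direction, where the median over all tested genes was 0.0048. All mutants lay below all wild types in 2 of the 10 and above in 0, where 6.43% and 5.23% of all tested genes did. Ppp1r9a, which encodes the actin-binding protein neurabin and lies next to Pon1, stood at 292, 334 and 313 CPM in mutants 1, 2 and 3, against 274, 273 and 339 CPM in wild types 1, 2 and 3. The groups overlapped, and its log2 fold change was 0.03 ± 0.12 (SE). On the other side Pon1 is followed by Pon3, described above. Asb4, the nearest listed gene beyond Pon2, had at most 0.26 CPM in any library, and Pdk4, a kinase that restrains pyruvate dehydrogenase, 0.46 to 4.01 CPM in the mutants and 1.48 to 5.91 CPM in the wild types.

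Farther out, Peg10, an imprinted gene derived from a retrotransposon, stood at 14.4, 13.6 and 13.6 CPM in the mutants, against 6.31, 11.6 and 26.96 CPM in the wild types, so the wild types spanned the mutants. Sgce, its imprinted neighbour for a sarcoglycan, had a log2 fold change of -0.08 ± 0.10 (SE). Casd1, a sialic acid acetyltransferase gene, had -0.02 ± 0.14, the mitochondrial aspartate-glutamate carrier gene Slc25a13 -0.15 ± 0.12 and the proteasome subunit gene Shfm1 -0.11 ± 0.09. Bet1, for a vesicle docking protein, stood at 18.7, 19.8 and 22.4 CPM in the mutants, against 26.2, 22.3 and 24.5 CPM in the wild types, with a log2 fold change of -0.31 ± 0.12 and an edgeR adjusted p of 0.737. Its groups overlapped in mutant 3 and wild type 2 on this scale, and stood apart only after TMM scaling. The collagen gene Col1a2 had 54.6 CPM in mutant 1, against 0.18 to 1.73 CPM elsewhere, as the fibroblast markers did. Its log2 fold change of 4.14 became -0.49 without mutant 1. Of the neighbours with at least 10 CPM on average, those at -0.31 to 0.03 were all nearer to 0 than the interval of Pon1.

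**Figure D4:**
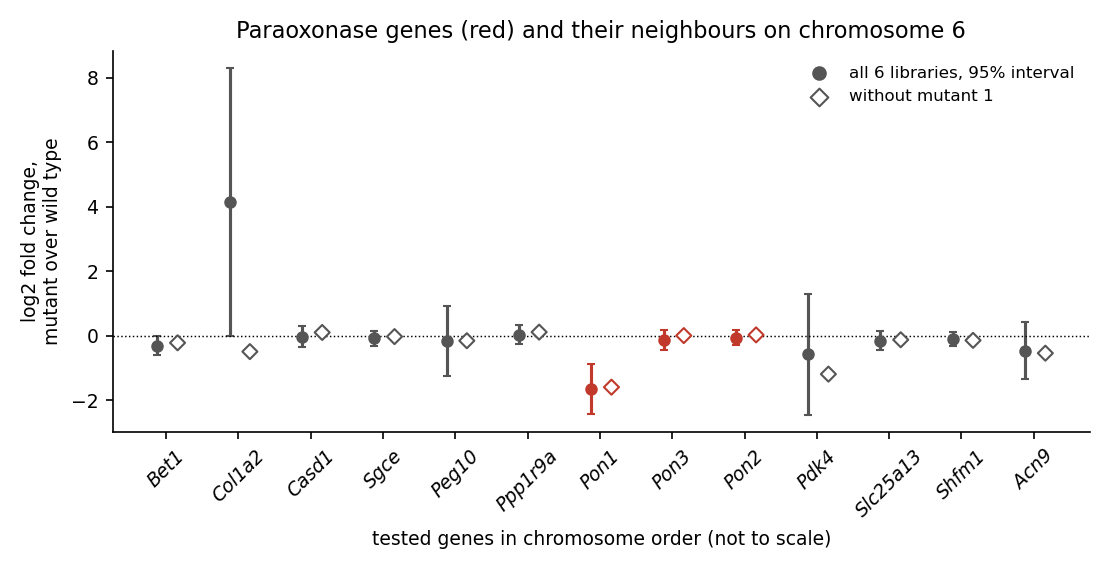
Log2 fold change of mutant over wild type for the tested genes of the region in chromosome order, with the paraoxonase genes in red. Filled points are fits of all 6 libraries with 95% intervals and open diamonds are fits without mutant 1. Pon1 lies at -1.66, while Ppp1r9a beside it and Pon3 and Pon2 after it lie within 0.14 of 0.

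Genes whose pattern over the 6 libraries was most like that of each member were listed among 8636 genes with at least 10 CPM on average. Likeness was the root-mean-square difference of log2 CPM after TMM scaling, each gene centred on its mean, so a smaller value is a closer match. Hes2, a repressor of the HES family, was closest to Pon1 with a difference of 0.21, where the median of all genes was 0.89. It stood at 6.25, 9.19 and 6.35 CPM in mutants 1, 2 and 3, against 27.2, 16.03 and 20.1 CPM in wild types 1, 2 and 3. As in Pon1, wild type 1 was highest and mutant 2 the highest of the mutants. The next were Mgll, for monoglyceride lipase, at 0.44, and Dusp4, a MAP kinase phosphatase, at 0.48, both farther away. Pon2 and Pon3 differed from each other by 0.08, and from Pon1 by 0.87 and 0.82. Many genes were as flat as these: 6093 genes lay within 0.2 of Pon2 and 4251 within 0.2 of Pon3, and none within 0.2 of Pon1. The closest to Pon2 were Fbxo45 (0.011), Tspan9 (0.020) and Sept8 (0.022), and to Pon3 Cab39l (0.036), Ldlrad3 (0.037) and Oaz2 (0.038). Likeness over 6 libraries says nothing of shared function or control.

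Genes of related function were taken as 6 lists, with 123 distinct genes tested. edgeR called 0 of them in either direction at an adjusted p under 5% (lowest adjusted p = 0.737), DESeq2 also called 0, and 8 of the 123 had an unadjusted edgeR p under 0.05, where 476 higher and 373 lower genes of 12899 had one. Log2 fold changes were positive in 46 and negative in 77, with a median of -0.03 (-0.04 without mutant 1). All mutant libraries lay below all wild-type libraries in 11 of them (8.94%, against 6.43% of all tested genes) and above in 2 (1.63%, against 5.23%). On every list the median was within 0.06 of 0, and no member of any list had a log2 fold change as low as that of Pon1.

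**Figure D5:**
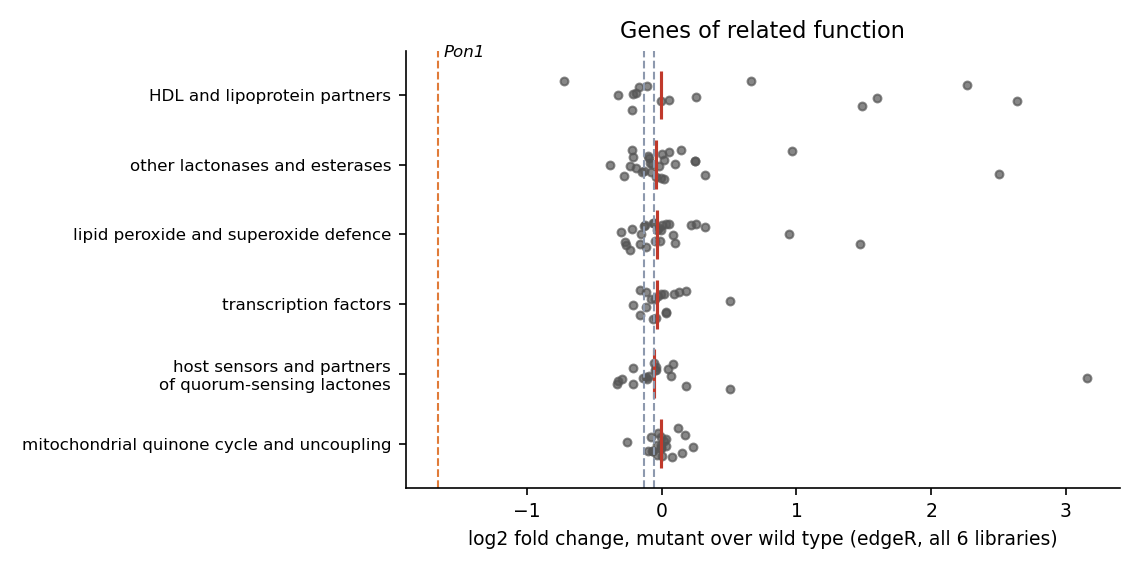
Log2 fold change of mutant over wild type for each tested gene of the 6 lists, 1 point a gene, with red ticks at list medians. Dashed lines mark Pon1 (orange, -1.66) and Pon3 and Pon2 (grey, -0.13 and -0.06). The list medians lie between -0.06 and -0.0034, and the points farthest to the right include genes high in mutant 1.

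HDL is the particle that carries paraoxonase 1, and 15 of 24 genes for its proteins, receptors and enzymes were tested, with 7 positive and 8 negative. Scarb1, the receptor that takes up lipid from HDL, stood at 47.7, 47.5 and 47.2 CPM in mutants 1, 2 and 3, against 58.6, 57.6 and 55.8 CPM in wild types 1, 2 and 3. The groups did not overlap and each was tight. The log2 fold change was -0.33 ± 0.07 (SE, edgeR adjusted p = 0.737), and -0.29 without mutant 1. Abca1, the exporter that loads cholesterol onto nascent HDL, had the opposite sign, at 61.995, 37.6 and 52.03 CPM in the mutants, against 31.1, 27.4 and 33.6 CPM in the wild types. These groups did not overlap either, and the log2 fold change was 0.66 ± 0.16 (edgeR adjusted p = 0.737), and 0.53 without mutant 1. The median of the list was -0.01 with all libraries and -0.08 without mutant 1.

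Other lactonases and esterases numbered 27 tested of 37 counted, with 11 positive, 16 negative and a median of -0.04. Pafah2, which cleaves oxidised phospholipids inside cells, stood at 83.2, 85.8 and 81.8 CPM in the mutants, against 93.997, 95.3 and 95.7 CPM in the wild types. The groups did not overlap, at a log2 fold change of -0.24 ± 0.07 (edgeR adjusted p = 0.737). Pafah1b3, a catalytic subunit of another acetylhydrolase of platelet-activating factor, had a log2 fold change of -0.28 ± 0.13 with overlapping groups.

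Genes against lipid peroxides and superoxide, 27 of 27 tested, had 9 positive and 18 negative log2 fold changes and a median of -0.03. Txn1, for thioredoxin, stood at 183.2, 197.9 and 211 CPM in the mutants, against 242, 218 and 248 CPM in the wild types. Sod1, the cytosolic superoxide dismutase, stood at 221, 217 and 207 CPM in the mutants, against 289, 240 and 222 CPM in the wild types. Neither gene overlapped between groups, but mutant 1 and wild type 3 were almost level for Sod1. Their log2 fold changes were -0.31 ± 0.10 and -0.27 ± 0.11 (SE), each with an edgeR adjusted p of 0.737.

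Transcription factors reported to act on paraoxonase genes, 18 of 22 tested, had 7 positive and 11 negative log2 fold changes, and a median of -0.04 that became 0.01 without mutant 1. Srebf2, the regulator of cholesterol synthesis, had -0.16 ± 0.09 (SE) and Esr1, the estrogen receptor alpha, -0.16 ± 0.10, both with overlapping groups. The groups stood apart in 0 of the 18, where 6.43% of all tested genes had every mutant below and 5.23% every mutant above.

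Host sensors and partners of the bacterial lactones, 19 of 22 tested, had 6 positive and 13 negative log2 fold changes and a median of -0.06. Xbp1, a transcription factor of the unfolded protein response, stood at 157.9, 154 and 150.5 CPM in the mutants, against 217, 165.6 and 178.8 CPM in the wild types. Wild type 1 was again highest, and the log2 fold change was -0.33 ± 0.11 (edgeR adjusted p = 0.737). Plcb2, a phospholipase of taste and blood cells, had 13.8 CPM in mutant 1, against 0.080 to 1.16 CPM elsewhere, and its log2 fold change of 3.16 became -0.27 without mutant 1. The genes of the mitochondrial quinone cycle, next to which paraoxonase 2 resides, had 8 positive and 13 negative log2 fold changes among 21 tested and a median of -0.0034. Coq2, which attaches the side chain of coenzyme Q, had -0.26 ± 0.18 (SE) and Adck3, an older symbol of Coq8a for a kinase-like protein of the same pathway, 0.15 ± 0.11, both with overlapping groups.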

How the data were processed

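Messenger RNA of sorted AT2 cells was sequenced in 3 mutant and 3 wild-type samples, on 1 flow cell per the labels' protocols. The authors deposited raw counts, whole numbers per gene symbol, 1 set per library. The submitters' processing notes name the build mm9 and the tools CASAVA and DESeq2. No aligner, counting program or annotation was stated in the sources used here. Reference sequences, transcript lengths and gene order are from RefSeq on GRCm38.p6 and GENCODE M21, a different build, and were matched by symbol for all 3 members.

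Groups came from the sample titles. CPM are of the library total. filterByExpr left 12899 genes holding at least 99.65% of each library's counts. TMM scaling and the two-sided quasi-likelihood test of edgeR 4.0.16 (R 4.3.3) followed, and p-values were adjusted after Benjamini-Hochberg across these genes, with calls made under 5%. Whether groups overlapped was judged on TMM-normalised CPM, and likeness on its log2 with 2 as prior count. The procedure was tested on simulated data. Library totals of 22511461 to 30695994 counts make counting error small for the members. P-values set the difference between groups against the spread between samples, which may not be separate animals.

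The members and lists were chosen with earlier results of these data known. Named genes were the members, the 2 genes of smallest p on each list, neighbours with a mean of at least 10 CPM and the 3 most alike genes per member. Asb4, Pdk4, Acn9, Col1a2, Cav1, Xist and Gpr133 were named after their values were seen. Older symbols served to match 10 list genes, and 6 stayed without a match. Replicates differed by 19.3 to 80.6 times counting noise (chi-square per degree of freedom), so none were merged. For pairing, deviations from the group mean were correlated between libraries of the same number. The correlations were 0.31, 0.21 and 0.17, over the limit of 0.1 in every pair. Libraries of unlike number were not correlated, so these values cannot show that the samples were paired. The labels do not state a pairing either. The main fit took the libraries as unpaired, and the replicate number served as a block in an alternative fit. Alternatives were edgeR on DESeq2 size factors, other filters on low counts, robust dispersion, the replicate block, DESeq2 1.42.0, limma-voom with quality weights (limma 3.58.1), leaving out each library, and, added after seeing the data, DESeq2 without mutant 1. No result met the rules for a closer look, in part because groups of 3 cannot be screened for outlying samples.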

Additional observations from a re-analysis of the deposited data

How the results depend on the processing

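Over 14 alternatives, the log2 fold change of mutant over wild type ran from -1.86 to -1.19 for Pon1, from -0.11 to 0.03 for Pon2 and from -0.22 to 0.01 for Pon3, each within the SD between replicates of the value with all libraries. Pon1 was negative in all 14. Pon2 and Pon3 were negative in 12 and slightly positive in the 2 without mutant 1. With the replicate number as a block (paired), Pon1 had -1.58, Pon2 -0.07 and Pon3 -0.15, and no call changed. The number of genes called over the whole table was 0 in edgeR and limma-voom under all settings but 1, and 0 to 1 when single libraries were left out. The exception was Gpr133 without wild type 3. DESeq2 called 38 genes with all libraries and 22 without mutant 1, and the cause of the difference between tools was not tested. No gene of the pathway and neighbour lists was called under any setting. Each member had at least 759 counts in every library, so counting error was small beside the spread between libraries for Pon1.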
